A study of Mus musculus with 8 samples.

Results

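The amino acid transporter genes of the solute carrier (SLC) families 1, 3, 6, 7, 36, 38 and 43 were compared between a pair of mouse kidney cell lines. The members were the protein-coding genes of the expression table whose symbol is the name of one of these 7 families followed by a number alone. They were 61 of 21896 protein-coding genes and of 55558 Ensembl genes in all. Symbols with a letter suffix, such as Slc6a20a and Slc6a20b, were left out. The line mK4 is labelled epithelial-differentiated metanephric mesenchyme and the line mK3 uninduced metanephric mesenchyme, the embryonic tissue that forms the nephrons. Both lines are labelled wild type, received no treatment and were kept in DMEM with fetal bovine serum. The data are 3 RNA-seq libraries of mK4 and 3 of mK3, with 1 ATAC-seq library of each line, an assay that reads open chromatin from transposase cuts. With 1 line per state, differences between the states and differences between these particular lines cannot be told apart. Whether the libraries of a line are separate cultures is not stated, and each p-value therefore rests on the spread between libraries, which may be technical.

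Cells take up amino acids through carriers with distinct tasks. Sodium-driven carriers such as those of the Slc38 family accumulate small neutral amino acids, and exchangers of the Slc7 family then trade these for leucine, cystine and others. Most Slc7 exchangers are light chains that reach the cell surface only when joined to a heavy chain, Slc3a1 or Slc3a2. When amino acids run short, the transcription factor ATF4 raises several of these genes together with enzymes of amino acid synthesis, and the kinase complex mTORC1 reads the internal supply at the lysosome. In the adult kidney, carriers of the proximal tubule, among them Slc6a19 and the pair Slc3a1 and Slc7a9, reclaim filtered amino acids.

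Ensembl genes took 133899125 to 146187601 counts per library, and the transporter genes took 0.180, 0.188 and 0.195% of these in mK4 against 0.254, 0.227 and 0.225% in mK3. Markers set the lines apart. Of 9 mesenchyme markers, 4 had a mean of at least 1 CPM (the library-scaled count, after TMM scaling) in mK4 and 8 in mK3, with summed levels of 289 to 307 CPM in mK4 and 3172 to 3769 CPM in mK3 and Thy1 at 0 in all 6 libraries. Of the 8 tested, 7 were lower in mK4. Vim was higher there, averaging 231 CPM in mK4 and 172 CPM in mK3 (edgeR adjusted p = 0.00208), and made up most of the mK4 sum. Of 10 kidney epithelium markers, 4 reached 1 CPM in mK4 and 0 in mK3, with sums of 1780.0 to 1859 CPM in mK4 and 0.640 to 1.2 CPM in mK3. The 5 tested epithelial markers were all higher in mK4: Cdh6 averaged 1668 CPM, Cdh16 84.2 CPM and Pax2 29.95 CPM in mK4, each at 0 in mK3, Pax8 39.4 CPM in mK4 against 0.616 CPM in mK3, and Lhx1 0.569 against 0.00756 CPM. Of the other 5, Cdh1 averaged 0.275 CPM in mK4 and 0 in mK3, Krt8 0.0350 CPM in mK4 and 0 in mK3, Epcam 0 in mK4 and 0.242 CPM in mK3, and Krt18 and Cldn4 were at 0 in all libraries. The proximal tubule sum was 271 to 288 CPM in mK4 and 35.8 to 52.7 CPM in mK3, of which Lrp2 averaged 261 CPM in mK4 and 5.58 CPM in mK3 and Cubn, called lower, 19.05 CPM in mK4 and 37.9 CPM in mK3, with Slc34a1, Slc22a6, Slc22a12 and Hnf4a at 0 in all libraries. The neuron markers summed to 0.620 to 2.69 CPM in mK4 and 28.2 to 45.8 CPM in mK3, where Syt1 averaged 36.3 CPM, while Gad1, the other tested one, was called higher, at 0.696 CPM in mK4 and 0 in mK3. Endothelium markers summed to 7.38 to 8.17 CPM in mK4 and 3.48 to 4.64 CPM in mK3, and leukocyte markers to 1.202 to 1.67 CPM in mK4 and 1.08 to 1.84 CPM in mK3. The endothelium markers went both ways. Cdh5 was called higher, at 7.35 CPM in mK4 and 0 in mK3, and Kdr and Tek were called lower, at 0 in mK4 and 1.44 and 1.78 CPM in mK3. The part that any of these differences had in the results below was not tested.

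Most transporter genes that differed were lower in mK4, while Slc1a3 was 45.2-fold higher there. Of the 61 members, 10 were at 0 in all 6 libraries, 13 more had too few reads to be tested, and 38 passed the filter on low counts. Of these 38, 5 were higher and 18 lower in mK4 and 15 were not called by edgeR's quasi-likelihood test at an adjusted p of 0.05. Over all tested genes 40.3% were called, 20.8% higher and 19.5% lower, and over tested protein-coding genes 48.5%, 24.7% higher and 23.8% lower. The libraries of the lines did not overlap for 26 of the 38, against 56.1% of all tested genes. Members that pass the filter through 1 line alone have to differ, so the 21 with a mean of at least 1 CPM in both lines were also counted on their own. Among these, 1 was higher, 10 were lower and 10 were not called. The same cut was not applied to all genes, so these counts have no matched share beside them.

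The summed level of all members was 1772, 1804 and 1847 CPM in mK4 libraries and 2508, 2390.0 and 2422 CPM in mK3 libraries. Without Slc1a3 the sums were 879.5, 918 and 977 CPM in mK4 and 2491, 2371 and 2400.0 CPM in mK3. The lines did not overlap in either sum, and with Slc1a3 left out the mK4 mean was 0.382 of the mK3 mean. In bulk RNA, fewer cells expressing a gene and less RNA per cell cannot be told apart, here or in any value below.

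**Figure D1:**
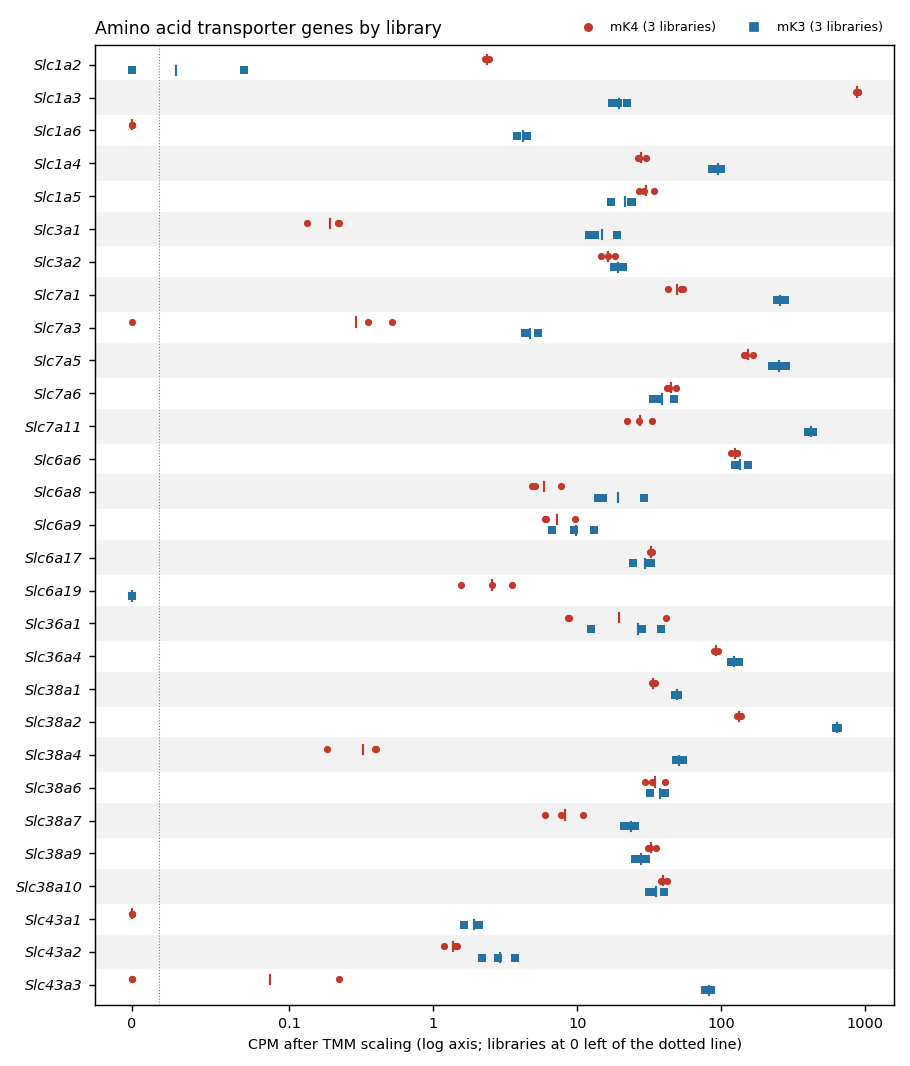
Levels of the 29 transporter genes with a mean of at least 1 CPM in at least 1 line, in CPM after TMM scaling on a log axis, with 1 red circle per mK4 library, 1 blue square per mK3 library and a short bar at each mean; libraries at 0 stand left of the dotted line. Slc1a3 lies at 870.0 to 892 CPM in mK4 and at 17.5 to 22.01 CPM in mK3, and the mK4 libraries of Slc7a11, Slc38a2, Slc7a1 and Slc7a5 lie below the mK3 libraries of the same gene.

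The promoters of 5 genes are printed because their genes carried the largest absolute differences in CPM (Slc1a3, Slc38a2, Slc7a11 and Slc7a1) or because they hold a motif of the ATF4 response and the gene reached a mean of 5 CPM in a line (Slc7a11 and Slc1a4). Each runs from 250 bases before to 50 after the start, on the gene's own strand, which is minus for all 5, from RefSeq for GRCm38.p6, and for Slc7a1 it is the first of 2 listed starts. Capitals mark matches to a core of the C/EBP-ATF response element, TGATGNAA, in Slc7a11 and Slc1a4, and to a core of the antioxidant response element, TGACNNNGC, in Slc38a2 and Slc7a1, read on both strands.
Slc7a11 (chr3:50443564-50443863): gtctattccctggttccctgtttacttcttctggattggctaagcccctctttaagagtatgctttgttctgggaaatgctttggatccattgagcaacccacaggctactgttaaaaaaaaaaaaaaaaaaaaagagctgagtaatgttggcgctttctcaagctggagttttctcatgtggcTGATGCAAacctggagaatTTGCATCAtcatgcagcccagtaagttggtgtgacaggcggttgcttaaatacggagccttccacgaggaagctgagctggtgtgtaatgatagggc
Slc1a4 (chr11:20332664-20332963): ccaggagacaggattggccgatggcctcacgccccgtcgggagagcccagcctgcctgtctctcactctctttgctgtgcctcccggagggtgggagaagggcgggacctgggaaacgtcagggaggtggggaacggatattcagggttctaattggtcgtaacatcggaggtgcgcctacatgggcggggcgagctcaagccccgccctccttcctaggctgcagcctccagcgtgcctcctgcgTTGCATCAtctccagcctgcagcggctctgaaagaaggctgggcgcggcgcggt
Slc38a2 (chr15:96699679-96699978): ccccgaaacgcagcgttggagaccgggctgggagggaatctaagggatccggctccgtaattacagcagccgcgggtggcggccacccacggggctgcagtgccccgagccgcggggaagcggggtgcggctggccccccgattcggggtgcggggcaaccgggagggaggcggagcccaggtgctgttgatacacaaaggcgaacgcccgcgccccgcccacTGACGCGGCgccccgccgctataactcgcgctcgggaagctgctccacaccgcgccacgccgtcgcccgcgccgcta
Slc7a1 (chr5:148399855-148400154): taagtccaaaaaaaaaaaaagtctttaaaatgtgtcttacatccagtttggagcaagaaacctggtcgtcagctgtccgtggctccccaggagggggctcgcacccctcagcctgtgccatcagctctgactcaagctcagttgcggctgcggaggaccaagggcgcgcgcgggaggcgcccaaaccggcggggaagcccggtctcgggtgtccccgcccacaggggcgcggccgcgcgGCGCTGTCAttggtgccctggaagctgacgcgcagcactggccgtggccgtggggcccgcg
Slc1a3 (chr15:8710758-8711057): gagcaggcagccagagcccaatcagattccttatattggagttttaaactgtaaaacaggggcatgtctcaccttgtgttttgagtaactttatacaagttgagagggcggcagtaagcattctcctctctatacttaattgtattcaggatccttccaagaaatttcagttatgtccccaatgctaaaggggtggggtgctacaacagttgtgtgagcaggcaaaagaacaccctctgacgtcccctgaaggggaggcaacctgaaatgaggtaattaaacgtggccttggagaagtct

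The table held a promoter for 43 of the 61 members. The C/EBP-ATF core was found in the promoters of 4 of these genes, Slc1a4, Slc6a21, Slc7a11 and Slc7a7, against 4.51% of all 27025 genes in the table and 3.97% of 32851 promoters. Slc7a11 held 2 non-overlapping matches that begin at positions -66 and -47 from the start on opposite strands, and Slc1a4 held 1 at -4. Slc7a7, whose RNA was low and not called, also held 2, at -141 and -1 from a listed start, and Slc6a21, without a read in any library, held 1 at -28. The antioxidant core was found in 9 of the 43, against 14% of genes and 12.4% of promoters, among them Slc38a2 at -27 and Slc7a1 at -11. The Slc1a3 promoter held neither core. A match is a run of letters and does not show that a factor binds there.

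Among the glutamate and aspartate carriers, which import both acids with sodium, 2 of the 3 genes tested had higher levels in mK4 and 1 was lower. Slc1a3, the carrier best known from astrocytes, had 892, 886 and 870.0 CPM in mK4 libraries against 17.5, 19.2 and 22.01 CPM in mK3 libraries. All mK4 libraries lay far above all mK3 libraries. The difference was 5.50 on the log2 scale (SE 0.11, adjusted p = 4.40e-06), 45.2-fold. Slc1a2, the other main glial carrier, had 2.28, 2.44 and 2.33 CPM in mK4 against 0.0487, 0 and 0 CPM in mK3 (log2 7.05, SE 1.27, adjusted p = 0.00595), and 7 reads in 1 library carried the mK3 level. Slc1a6, known from cerebellar Purkinje cells, went the other way, at 0 in every mK4 library against 4.44, 3.84 and 4.39 CPM in mK3, at least 192-fold lower in mK4 when a floor of 3 counts per library stands in for 0 (adjusted p = 0.000185). Slc1a1, the carrier of the kidney tubule, had 6 reads in a single mK3 library, and Slc1a7 had reads in 2 mK3 libraries.

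The small neutral amino acid exchangers Slc1a4 and Slc1a5 belong to the same family but carry serine, alanine, cysteine or glutamine. Slc1a4 had 26.4, 26.6 and 29.9 CPM in mK4 against 86.0, 96.6 and 100 CPM in mK3, and fell by 1.77 on the log2 scale (SE 0.10, adjusted p = 6.06e-05). Slc1a5, the glutamine exchanger, had 28.9, 26.9 and 34.1 CPM in mK4 against 23.5, 17.3 and 24.0 CPM in mK3. Its libraries did not overlap, but the difference of 0.47 on the log2 scale (95% interval 0.07 to 0.88) missed the threshold with an adjusted p of 0.0647. It passed in 4 of 12 alternative analyses, in which the adjusted p ran between 0.0350 and 0.176.

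Of the heavy chains, 1 was lower in mK4 and 1 was not called. Slc3a1, the partner of the cystine carrier Slc7a9 and a gene mutated in human cystinuria, had 0.220, 0.217 and 0.133 CPM in mK4 against 18.9, 12.1 and 13.3 CPM in mK3, a decrease of 77.3-fold (log2 -6.27, SE 0.33, adjusted p = 5.37e-05). Slc7a9 itself was at 0 in all 6 libraries, so the mK3 transcript of Slc3a1 had no detectable counterpart from this light chain. A count of 0 allows up to 3 reads per library, 0.0220 CPM in mK4 and 0.0242 CPM in mK3, for counting error only. Slc3a2, also called CD98, which joins several other light chains, had 16.3, 14.7 and 18.3 CPM in mK4 against 18.9, 18.1 and 20.8 CPM in mK3. The lines overlapped for Slc3a2, and the difference of -0.23 on the log2 scale (95% interval -0.53 to 0.08, adjusted p = 0.203) was not called.

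Of 5 tested light chains, 2 were lower in mK4 and 3 were not called. Slc7a11, or xCT, which brings in cystine for glutathione in exchange for glutamate, had 27.0, 33.1 and 22.2 CPM in mK4 against 399.5, 436 and 423 CPM in mK3. All mK4 libraries lay far below all mK3 libraries, and the decrease was 15.3-fold (log2 -3.93, SE 0.16, adjusted p = 2.91e-05). Its promoter is the one with paired C/EBP-ATF cores printed above. Slc7a5, the leucine exchanger LAT1, had 144, 150 and 167 CPM in mK4 against 282, 224 and 253 CPM in mK3 and fell by 0.72 on the log2 scale (SE 0.10, adjusted p = 0.00248).

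The remaining light chains did not pass the test or had too few reads to be tested. Slc7a6, which exchanges cationic for neutral amino acids, had 48.7, 41.7 and 43.7 CPM in mK4 against 33.5, 36.3 and 46.9 CPM in mK3, with 1 mK3 library inside the mK4 range (log2 0.20, 95% interval -0.16 to 0.56, adjusted p = 0.334). Slc7a7, its relative of epithelia and macrophages, was low, with 1.31, 0.795 and 0.666 CPM in mK4 against 1.11, 0.340 and 0.676 CPM in mK3 (adjusted p = 0.624). Slc7a8, a neutral exchanger of the proximal tubule, was at 0 in all 6 libraries, as were Slc7a9 and Slc7a12.

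Of 4 tested members of the cationic amino acid group, 3 were lower in mK4. Slc7a1, the widely expressed carrier of arginine and lysine, had 42.6, 52.4 and 54.0 CPM in mK4 against 279, 244 and 250.0 CPM in mK3. The lines stood well apart, and the decrease was 5.19-fold (log2 -2.38, SE 0.12, adjusted p = 4.19e-05). Slc7a2, a cationic carrier induced in activated macrophages, was low in both lines, with a single mK4 library holding 3 reads, and was lower in mK4 (log2 -6.11, adjusted p = 0.0100). Slc7a3, another cationic carrier, had 0.352, 0.512 and 0 CPM in mK4 against 5.32, 4.36 and 4.32 CPM in mK3 (log2 -4.01, adjusted p = 0.0492). That call held in 3 of 11 alternative analyses. Without mK4 library 1 or 2 its adjusted p was 0.120 or 0.0808, and without mK3 library 1, 2 or 3 it was 0.117, 0.105 or 0.101. Slc7a4, a relative without established transport, was not called (log2 2.48, adjusted p = 0.319), but without mK3 library 2 its adjusted p was 0.00744.

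The Slc38 family, sodium-coupled carriers of glutamine, alanine and other neutral amino acids, had 8 tested members, of which 5 were lower in mK4 and 3 were not called. Slc38a2, a system A carrier that cells raise in amino acid shortage, had 129, 134 and 137 CPM in mK4 against 644.5, 633.5 and 632 CPM in mK3. The spread within each line was small beside the gap, a decrease of 4.78-fold (log2 -2.26, SE 0.05, adjusted p = 6.51e-06). Slc38a1, a related carrier of glutamine, had 33.2, 34.6 and 33.6 CPM in mK4 against 50.3, 49.7 and 47.6 CPM in mK3 (log2 -0.54, SE 0.07, adjusted p = 0.00189). Slc38a4, an imprinted system A gene of placenta and liver, had 0.396, 0.184 and 0.400 CPM in mK4 against 48.5, 54.6 and 49.6 CPM in mK3, a decrease of 156-fold (log2 -7.29, SE 0.34, adjusted p = 3.80e-05).

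These 3 system A genes are neighbours on chromosome 15, where Slc38a1 lies at 96571418 to 96643438, Slc38a2 at 96687392 to 96699728 and Slc38a4 at 96994816 to 97055956 (mm10). The median log2 difference over 683 tested genes of chromosome 15 was -0.50, against 0.02 over all genes. Slc1a3, on the same chromosome at 8634124 to 8710807, was far higher in mK4. On chromosome 3, where the median over 854 tested genes was 0.69, Slc7a11 was lower in mK4. The part of a difference between whole chromosomes in these values was not tested.

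Lysosomal Slc38 members differed among themselves. Slc38a7, which exports glutamine from lysosomes, had 10.97, 6.01 and 7.70 CPM in mK4 against 25.2, 21.0 and 24.1 CPM in mK3 and fell by 1.51 on the log2 scale (SE 0.24, adjusted p = 0.00344). Slc38a9, the lysosomal arginine sensor upstream of mTORC1, had 31.8, 35.5 and 31.0 CPM in mK4 against 25.1, 29.9 and 28.5 CPM in mK3. Its libraries did not overlap, yet it was not called (log2 0.23, 95% interval -0.03 to 0.49, adjusted p = 0.134). Slc38a6 and Slc38a10 were not called either (adjusted p = 0.609 and 0.272), with intervals of -0.50 to 0.27 and -0.10 to 0.46. Slc38a3, a glutamine carrier of liver, brain and kidney, was at 0 in mK4 and at 0.0831 to 0.230 CPM in mK3, at least 7.43-fold lower (adjusted p = 0.0106). Without mK3 library 1 or 3 that adjusted p was 0.0582 or 0.0523.

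All 3 Slc43 genes were lower in mK4. Slc43a3, which carries purine nucleobases in human cells, had 0.220, 0 and 0 CPM in mK4 against 83.4, 76.8 and 85.1 CPM in mK3 (log2 -10.18, SE 1.09, adjusted p = 0.000762), so it was close to absent from one line and well expressed in the other. Slc43a1, a leucine carrier beside it on chromosome 2, was at 0 in every mK4 library against 2.06, 1.63 and 2.04 CPM in mK3, at least 86.9-fold lower in mK4 (adjusted p = 0.000478). Slc43a2, a second leucine and phenylalanine carrier, had 1.19, 1.47 and 1.41 CPM in mK4 against 3.71, 2.82 and 2.19 CPM in mK3 (log2 -1.10, SE 0.28, adjusted p = 0.0214). The Slc43a2 call held in 6 of 12 alternatives. Without mK4 library 1, 2 or 3 its adjusted p was 0.0718, 0.0536 or 0.0540, and without mK3 library 1 or 2 it was 0.0651 or 0.0558.

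The Slc6 family carries neurotransmitters and osmolytes beside amino acids, and 11 of its 19 members had too few reads to be tested, 4 of them with 0 in all libraries. Of 8 tested, 2 were higher, 1 lower and 5 not called. Slc6a19, the main neutral amino acid carrier of proximal tubule and gut, had 3.53, 1.56 and 2.57 CPM in mK4 and was at 0 in every mK3 library, at least 106-fold higher in mK4 (adjusted p = 0.000949). Slc6a12, a betaine carrier of the kidney medulla, was at 0.418 to 1.01 CPM in mK4 and at 0 in mK3, at least 31.6-fold higher (adjusted p = 0.00279). Slc6a8, the creatine carrier, had 4.85, 7.75 and 5.12 CPM in mK4 against 28.8, 13.9 and 15.2 CPM in mK3 and fell by 1.71 on the log2 scale (SE 0.35, adjusted p = 0.00999).

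Slc6a9, the glycine carrier GlyT1, had 6.06, 6.004 and 9.57 CPM in mK4 against 13.0, 6.66 and 9.52 CPM in mK3. Its ranges overlapped, and the difference of -0.43 on the log2 scale had a 95% interval of -1.19 to 0.32 (adjusted p = 0.326). The taurine carrier Slc6a6, at 117 to 129 CPM in mK4 and 125 to 154 CPM in mK3, had an interval of -0.37 to 0.12 (adjusted p = 0.391), which bounds any difference at well under that of Slc38a2 or Slc7a1. The vesicular carrier Slc6a17 had an interval of -0.15 to 0.46 (adjusted p = 0.392).

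Of 3 tested Slc36 carriers, 1 was higher, 1 lower and 1 not called. Slc36a4 had 92.3, 95.4 and 88.5 CPM in mK4 against 116.5, 132 and 119 CPM in mK3 (log2 -0.41, SE 0.08, adjusted p = 0.00617). Slc36a1, which exports amino acids from lysosomes, had 8.59, 8.80 and 41.3 CPM in mK4 against 38.2, 28.1 and 12.4 CPM in mK3. The highest library exceeded the lowest 4.81-fold within mK4 and 3.09-fold within mK3, so its level could not be set apart between the lines (log2 -0.42, 95% interval -2.21 to 1.37, adjusted p = 0.695). Slc36a2, a glycine and proline carrier known from the kidney tubule, was at 0.125 to 1.06 CPM in mK4 and at 0 in mK3, at least 28.4-fold higher (adjusted p = 0.0123).

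**Figure D2:**
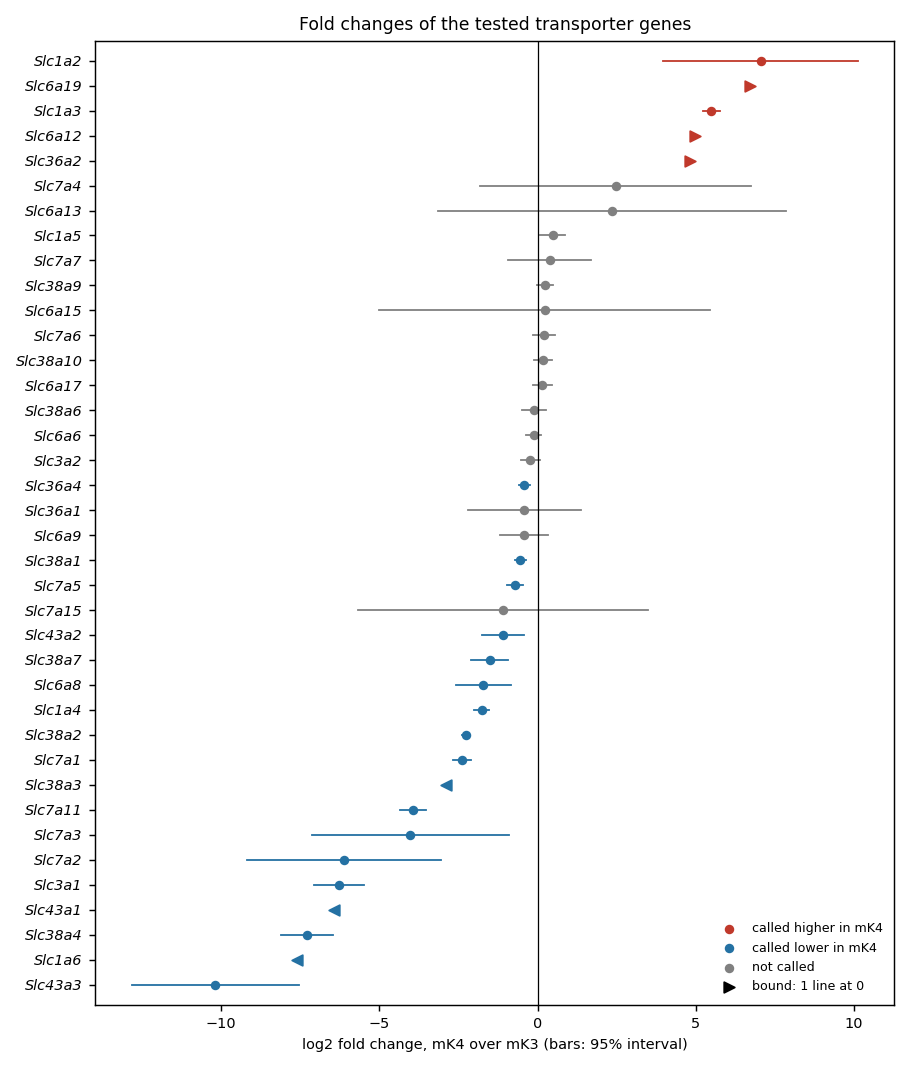
Log2 fold changes, mK4 over mK3, of the 38 tested transporter genes from edgeR, with 95% intervals as bars; red marks genes called higher in mK4, blue genes called lower and grey genes not called, and triangles mark bounds for genes without a read in one line. The intervals of Slc38a2 and Slc1a3 are narrow, while those of Slc6a13, Slc6a15, Slc7a4 and Slc7a15 span 0 widely.

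Open chromatin could be described but not tested, with 1 ATAC library per line. The deposited lists held 34710 peaks in mK4 and 22477 in mK3, and the fold enrichments given here are the authors' own per peak. At the transporter genes, from 1 kb before to 1 kb after each gene, lay 78 mK4 peaks at 38 members and 47 mK3 peaks at 29 members, of which 34 overlapped between the lines, 43.6% of these mK4 peaks and 72.3% of these mK3 peaks. Over all kept peaks, 47.0% in mK4 and 71.9% in mK3 overlapped a peak of the other line, so the shares at the transporters lay near those of the whole lists. Of the 43 members with a listed start, 15 had a peak within 1 kb of it in both lines, 2 in mK4 alone, 1 in mK3 alone and 25 in neither. Of the 26 tested members with a listed start, 15 had one in both lines (57.7%, against 59.2% of tested genes with a listed start), 1 in mK4 alone (3.85%, against 10.6%), 1 in mK3 alone (3.85%, against 4.39%) and 9 in neither (34.6%, against 25.8%).

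Among the 43 members with a listed start, those with a start peak in mK4 alone were Slc6a19 and the serotonin carrier Slc6a4. The member with a start peak in mK3 alone was Slc7a1. Members without a listed start, such as Slc43a3 and Slc6a8, were not classed. An mK3 peak of 7.126-fold without an overlapping mK4 peak lay over an end of Slc43a3. An mK4 peak of 3.996-fold without an overlapping mK3 peak lay over an end of Slc6a8. The RNA of both genes was lower in mK4. Slc6a19 had a start peak of 7.78-fold enrichment in mK4, the line where its RNA was detected. At Slc7a1, 3 peaks of 3.86, 2.90 and 2.71-fold lay at the start in mK3, the line with more of its RNA, and the mK4 peak at this gene lay inside it, 38.2 kb from the start. Slc1a3 had a start peak in both lines, 5.09-fold in mK4 and 3.04-fold in mK3, and 5 further mK4 peaks without an overlapping mK3 peak, 4 of them inside the gene, 24.9 to 72.2 kb from the start, and 1 just beyond its last base. The authors' -log10 q of its start peak was 4.16 in mK3 against 84.9 in mK4. This value differed between genes at like fold enrichment. In mK4 a 3.57-fold peak at Slc1a3 had 34.35 and a 3.58-fold peak at Slc43a2 had 6.34, so it is not read as peak strength. When a -log10 q of at least 5 was required, Slc1a3 had a start peak in mK4 alone.

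Large RNA differences also stood beside shared start peaks. Slc7a11 had a start peak of 4.18-fold in mK4 and 4.98-fold in mK3, both over the promoter printed above. Slc38a2 had start peaks of up to 5.53-fold in mK4 and 5.10-fold in mK3. Slc38a4 had no start peak in either line and shared its inner peaks, of 6.39 and 4.18-fold in mK4 and 6.97 and 2.93-fold in mK3, apart from 1 of 4.25-fold in mK3. The median log2 RNA difference was -0.41 over the 15 tested members with a start peak in both lines and -1.09 over the 9 tested members with one in neither, against 0.01 and 0.10 over all tested genes of these classes.

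**Figure D3:**
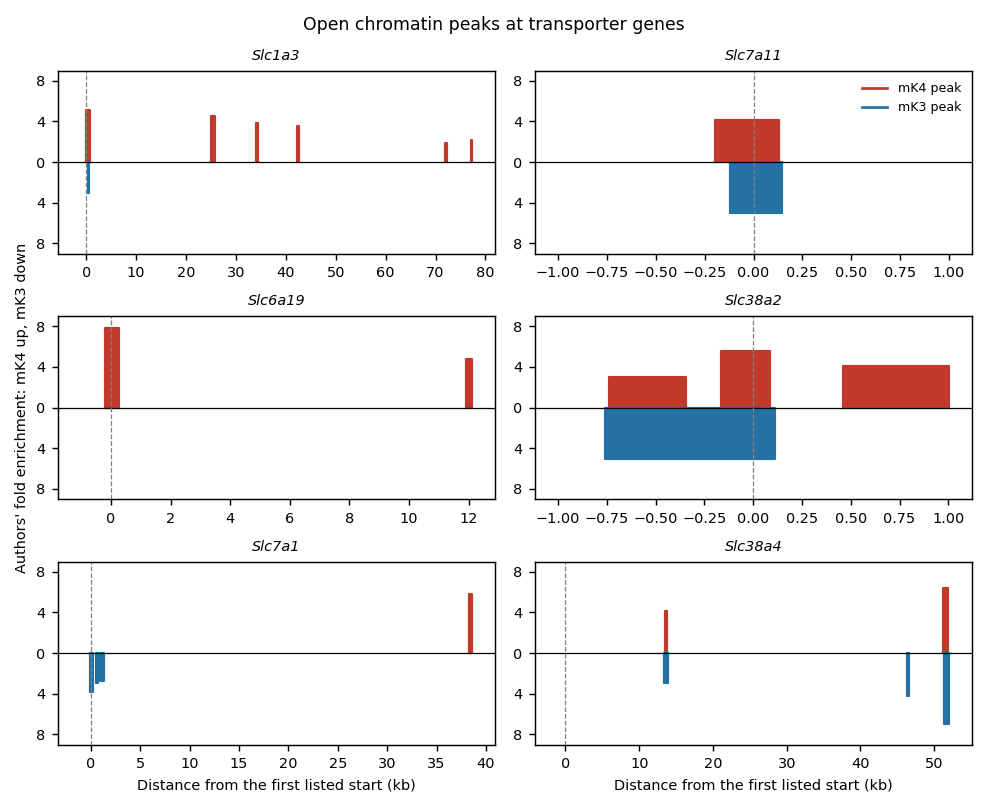
ATAC-seq peaks at 6 transporter genes, drawn from their first to their last base against distance from the first listed gene start in kb, with the authors' fold enrichment of mK4 peaks upward in red and of mK3 peaks downward in blue, 1 library per line. Slc1a3 shows 6 mK4 peaks against 1 mK3 peak, Slc7a1 has start peaks in mK3 alone, and Slc7a11 and Slc38a2 have start peaks in both lines.

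Other genes of amino acid handling were read from 7 lists in the same fit, and their counts stand against the 24.7% higher and 23.8% lower among protein-coding genes. Of 20 ATF4 targets and stress factors, 11 were lower and 0 higher by edgeR, 1 was higher at an unadjusted p under 0.05 and 0 by DESeq2, and the median log2 difference was -0.69. Without mK4 library 3, 1 gene was called higher. Atf4, the factor itself, had 22.02, 20.8 and 21.0 CPM in mK4 against 42.0, 47.9 and 52.7 CPM in mK3 (log2 -1.16, SE 0.11, adjusted p = 0.000427). Chac1, which degrades glutathione, had 2.60, 2.79 and 3.60 CPM in mK4 against 13.5, 13.1 and 15.2 CPM in mK3 (log2 -2.22, SE 0.18, adjusted p = 0.000244). Asns, asparagine synthetase, had 115, 126 and 113.5 CPM in mK4 against 285, 337 and 354 CPM in mK3 (log2 -1.46, SE 0.10, adjusted p = 0.000124). The lists overlap, with Asns, Chac1, Gpt2 and Sesn2 in 2 lists each, and Slc7a11 and Slc1a4 were counted among the transporters only.

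Of 21 genes of amino acid synthesis, 11 were lower and 2 higher, with a median of -0.66. Ass1, which makes the arginine precursor argininosuccinate, had 17.9, 18.04 and 17.03 CPM in mK4 against 60.5, 76.6 and 65.1 CPM in mK3 (log2 -1.93, adjusted p = 7.29e-05), and Mthfd2, of mitochondrial folate metabolism, averaged 29.3 ± 2.34 CPM in mK4 and 74.8 ± 5.19 CPM in mK3 (SD, n = 3 libraries each; edgeR adjusted p = 0.000160). Against this direction, Phgdh, the first enzyme of serine synthesis, had 448, 436 and 454 CPM in mK4 against 254, 222 and 248.5 CPM in mK3 (log2 0.89, adjusted p = 0.000207). Glul, glutamine synthetase, was also higher, at 19.9, 19.2 and 19.0 CPM in mK4 against 8.41, 8.55 and 10.5 CPM in mK3 (log2 1.08, adjusted p = 0.00112). Of 20 cytoplasmic tRNA synthetases, 13 were lower and 1 higher, with a median of -0.40. Leaving out each library gave 9 to 11 lower. Iars, Wars and Yars fell by 0.91, 1.60 and 1.36 on the log2 scale, and Tars, the threonine enzyme, was higher, at 257.5, 236 and 230.5 CPM in mK4 against 71.9, 77.3 and 67.7 CPM in mK3 (log2 1.74, adjusted p = 3.69e-05).

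The other 4 lists held calls in both directions, and nothing is read from shares near those of protein-coding genes. Of 30 tested genes of mTORC1 amino acid sensing, 7 were higher and 9 lower (median -0.07). Sesn3, a stress-induced inhibitor, and the Ragulator subunits Lamtor5 and Lamtor2 were higher in mK4 by 1.74, 1.13 and 1.64 on the log2 scale, and Fnip1, Rragc and Fnip2 fell by 1.33, 1.02 and 0.94. Without mK3 library 1 or 3, 4 or 3 genes of this list were called higher. Of 12 tested genes of glutathione metabolism, 4 were higher and 4 lower (median 0.16). Gclm, the modifier subunit of glutathione's first enzyme, had 182, 176 and 189 CPM in mK4 against 63.5, 65.3 and 62.4 CPM in mK3 (log2 1.52, adjusted p = 2.56e-05), opposite to the cystine importer Slc7a11, and Oplah and Gsr were higher by 1.92 and 0.58. Cth, which makes cysteine from cystathionine, fell by 1.83 (adjusted p = 0.000454), and Chac1 fell as above. Ggt5 was called lower (log2 -4.11, adjusted p = 0.0415), a call that held in 4 of 11 alternatives. Without mK4 library 1 or 2 its adjusted p was 0.105 or 0.0762, without mK3 library 1, 2 or 3 it was 0.0983, 0.0908 or 0.0982, and 2 genes of the list were called lower in each of these 5 analyses.

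Of 17 genes of branched-chain amino acid breakdown, 6 were higher and 4 lower (median 0.21). The branched-chain dehydrogenase split between its subunits, with Bckdhb at 0, 0.0328 and 0.0533 CPM in mK4 against 6.69, 7.601 and 7.68 CPM in mK3 (log2 -7.93, SE 0.82, adjusted p = 0.000660), while Dbt and Bckdha were higher in mK4 by 1.80 and 0.97. The kinase Bckdk, which switches this complex off, was higher by 0.79, and Bcat1 and Mccc1 fell by 0.49 and 1.11. Of 16 tested carriers outside the members, 4 were higher and 2 lower (median 0.04). They include Slc6a20b, an Slc6 gene whose letter suffix kept it out of the members, which was not called. Slc15a4 and Slc16a10, a lysosomal carrier and an aromatic amino acid carrier, fell by 1.10 and 2.00, and the mitochondrial branched-chain carrier Slc25a44 was higher by 0.46 (adjusted p = 0.0114). Slc25a15 and the lysosomal cystine exporter Ctns were higher by 0.47 and 0.44 (adjusted p = 0.0214 and 0.0168). The vesicular glutamate carrier Slc17a7 was low and called higher (log2 5.21, adjusted p = 0.0269), a call that held in 4 of 11 alternatives. Without mK4 library 1 the adjusted p of Slc25a15, Ctns and Slc17a7 was 0.0714, 0.0604 and 0.0658, and 1 carrier of the list was called higher. Without mK4 library 3, or mK3 library 1 or 3, it was 0.0643, 0.0607 and 0.0624 for Slc25a15 and 0.0772, 0.0651 and 0.0671 for Slc17a7, and 2 carriers were then called higher. Without mK4 library 2 it was 0.0745 for Slc17a7. Without mK4 library 3, 4 were called lower.

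**Figure D4:**
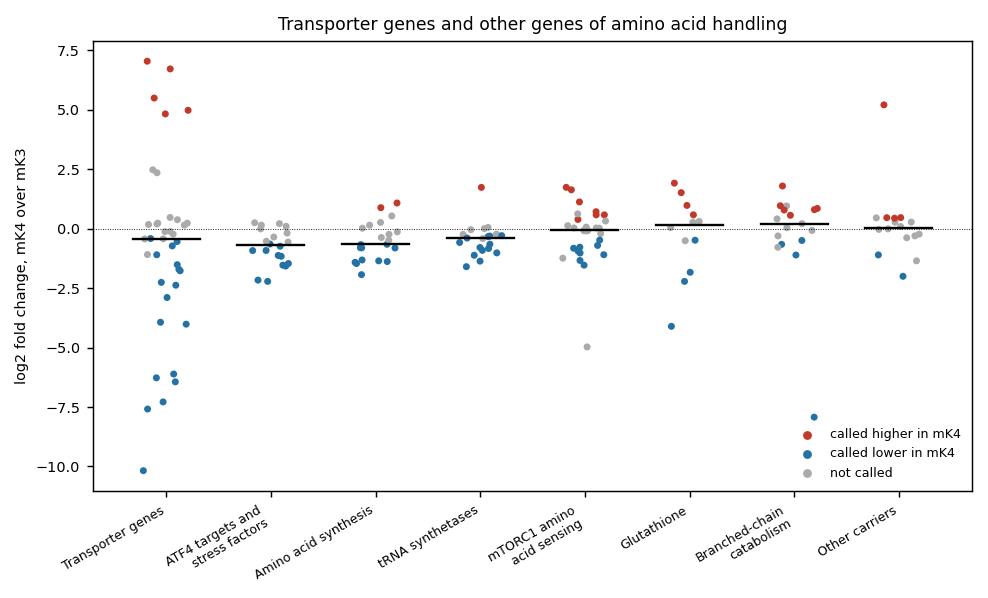
Log2 fold changes, mK4 over mK3, of the tested transporter genes and of the tested genes of 7 lists of amino acid handling, 1 point per gene, red where called higher in mK4, blue where called lower and grey where not called, with a black line at each median and genes without a read in one line placed at their bound. The medians lie at -0.43 for the transporters and at -0.69, -0.66 and -0.40 for ATF4 targets, amino acid synthesis and tRNA synthetases, and between -0.07 and 0.21 for the other 4 lists.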

How the data were processed

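The authors deposited raw read counts for 59004 features, of which the 55558 Ensembl genes were used. Libraries were depleted of ribosomal RNA and strand-specific per the labels' protocols, but no source used here gives the strand setting of the counting, so reads of an antisense partner may be included. The submitters' processing notes name mm10, MACS3, HTSeq 2.0.2, STAR 2.7.10a, bedtools, Bowtie2, deepTools and SAMtools, without their roles. Read by column position, the deposited peak lists, 1 per line, give the authors' fold enrichment (a ratio), -log10 q and an integer peak score, which was not used. No source used here gives the settings of the peak caller.

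Here all genes were fitted with edgeR 4.0.16 in R 4.3.3 (filterByExpr, TMM, robust quasi-likelihood test of mK4 against mK3), with Benjamini-Hochberg adjustment over 20405 tested genes and calls at 0.05. CPM are after TMM scaling. Fold bounds use 3 counts per library in place of 0. Floors and intervals cover counting error or replicate spread only. Gene lengths were not used. Sums over genes, shares of such sums and the choice of promoters by CPM difference therefore count reads and not transcripts. Gene positions and promoters came from RefSeq tables for GRCm38.p6, which is mm10, matched by symbol. Tables were joined in Python 3.11.15, and the steps were tested on simulated data.

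Genes described one by one were every member called with a mean of at least 5 CPM in a line, 13 further members set whatever their value, and up to 3 called genes per direction and list with the smallest adjusted p. Slc1a2, Slc1a6, Slc7a2, Slc7a3, Slc7a4, Slc36a2, Slc38a3, Slc43a1, Slc43a2, Slc6a6, Slc6a12, Slc6a17, Slc6a19, Slc17a7 and other genes outside this rule were named after their values were seen. The members and lists were chosen with earlier results of these data known. The 12 alternatives were other scalings, DESeq2 1.42.0, other filters on low counts, a replicate block and leaving out each library, and for peaks another window, threshold and overlap.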

Additional observations from a re-analysis of the deposited data

How the results depend on the processing

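Of the 23 called transporter genes, 19 were called in every alternative that could fit them. The counts of 5 higher and 18 lower became 7 and 17 without scaling factors, 6 and 18 with DESeq2, 5 and 17 without a filter and 2 and 10 when at least 1 CPM was required in all 6 libraries, which leaves fewer genes to test. Leaving out each library gave 5 to 6 higher and 15 to 17 lower. The deviations of same-numbered libraries of the lines had correlations of -0.0371, 0.0024 and 0.0137, within the -0.0525 to 0.0565 of differently numbered ones. No sign of pairing by number was seen, which does not exclude it. A fit with the replicate number as a block called 5 members higher and 15 lower, 4 mTORC1 genes and 1 other carrier higher and 2 glutathione genes lower, and gave Slc36a2 an adjusted p of 0.0502. Without a filter on low counts 2 glutathione genes were lower, and without scaling factors, which shifted the median of all genes by 0.11 on the log2 scale, 1 ATF4 target was higher. The 13 tRNA synthetases called lower became 9 without scaling factors and 9 with the replicate block. Leaving out each library gave 0 to 1 ATF4 targets higher, 9 to 11 tRNA synthetases lower, 3 to 5 mTORC1 genes higher, 2 to 4 glutathione genes lower, and 1 to 4 other carriers higher and 2 to 4 lower. Slc6a15, at 0.23 on the log2 scale and not called (adjusted p = 0.945), reversed to -0.245 and -0.126 without mK4 library 1 or 3 and to -0.356 and -0.353 without mK3 library 1 or 2, and was 7.178 without mK3 library 3, the only mK3 library with a read. With peaks of -log10 q of at least 5, 4 of the 43 members with a listed start had a start peak in mK4 alone. These were Slc1a3, Slc6a9, Slc6a17 and Slc6a19, with a median log2 RNA difference of 2.82. With a window of 5 kb the median of members with a listed start but no start peak in either line was -3.68. Where not stated, the cause was not tested. Depth limits members with few reads: 9 had reads in 1 of 6 libraries, with 6 to 77 counts.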
